A study of Sus scrofa with 24 samples.

Results

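The 6 entries of the miR-199 and miR-214 families were followed in pig fat cells that were differentiated in culture. The members are all rows named ssc-miR-199a, ssc-miR-199b or ssc-miR-214, with either arm, and they are 6 of the 1587 miRNA entries of the table. Primary preadipocytes came from Yorkshire piglets of 6 days of age, from back subcutaneous fat (BF) or from the longissimus dorsi muscle (intramuscular, IMF). Muscle was digested with more concentrated collagenase and for longer than fat, and this cannot be told apart from the source. After the day 0 cultures had been taken, both sources received the same agents: an induction medium with 3-isobutyl-1-methylxanthine, dexamethasone and insulin until day 2, maintenance medium with insulin until day 4, and growth medium after that. Small RNA was sequenced from 3 libraries of each source on day 0, before induction, and on days 2, 4 and 8, so that there were 8 groups and 24 libraries. The groups are written BF-0d to BF-8d and IMF-0d to IMF-8d. The study used 3 piglets, and the labels do not tie a library to a piglet, so the p-values measure the spread between these libraries, which may be partly technical.

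A miRNA is cut from a hairpin precursor, which gives a 5p arm and a 3p arm, and the arm loaded into Argonaute pairs with target mRNAs through its seed. Genes of the miR-199 and miR-214 families lie inside dynamin genes, on the opposite strand, and miR-199a and miR-214 can come from a shared long transcript there. Both families are known as miRNAs of mesenchymal cells such as fibroblasts, and both have been studied in fibrosis and in the formation of muscle, bone and fat.

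The 6 mature sequences are shown because shared letters decide which entries can be told apart and which share targets. They are written 5′ to 3′, in T for U as in the source used, with the seed (bases 2 to 8) in capitals.
ssc-miR-199a-5p: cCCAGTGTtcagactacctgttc
ssc-miR-199b-5p: cCCAGTGTttagactatctgtt
ssc-miR-199a-3p: aCAGTAGTctgcacattggtta
ssc-miR-199b-3p: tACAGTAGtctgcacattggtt
ssc-miR-214-5p: tGCCTGTCtacacttgctgtgc
ssc-miR-214-3p: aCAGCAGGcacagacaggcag
The 5p arms of miR-199a and miR-199b share the seed CCAGTGT. From miR-199a-5p to miR-199b-5p they differ by C10T and C17T over the 22 bases compared, counted from 1 at the 5′ end, so that reads of the 2 can be told apart. The 3p arms differ only by where they start and end: they share 21 bases, and ssc-miR-199b-3p starts 1 base earlier. This shift gives them seeds that read differently, ACAGTAG and CAGTAGT. The seeds of miR-214-5p and miR-214-3p are not shared with any other member.

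On Sscrofa11.1, with NCBI's gene annotation, all 4 precursors lie on the minus strand in introns of a dynamin gene of the plus strand. MIR199B is at chr1:268691520-268691593 in DNM1, and MIR199A-2 is at chr2:69558051-69558130 in DNM2. MIR214 at chr9:114527992-114528101 and MIR199A-1 at chr9:114533783-114533858 are both in DNM3, with 5681 bases between them. In each of the 15 annotated transcripts of DNM3, the 19 of DNM2 and the 12 of DNM1 the precursor falls in an intron and overlaps no exon. The sequence of miR-199a-5p has 2 exact copies in the genome, those of MIR199A-1 and MIR199A-2, while miR-199b-5p and both miR-214 arms have 1 copy each. Both 3p sequences of miR-199 are found in all 3 miR-199 precursors. A 3p read can therefore come from chromosome 1, 2 or 9, and a miR-199a-5p read from chromosome 2 or 9.

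The table showed the same overlap in its counts. The entries ssc-miR-199a-3p and ssc-miR-199b-3p held equal read numbers in 20 of 24 libraries, and in the other 4 the second was higher by at most 2 reads, where the lowest library had 12588. They were therefore treated as a single quantity, called miR-199-3p and read from the ssc-miR-199b-3p entry, which left 5 distinct members of the 6 entries. All 5 passed the filter of a mean of at least 1 TPM, as did 430 of the 1587 entries, and no member was at 0 in any library. TPM here is reads per 1000000 reads counted on miRNAs, with no correction for length.

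Libraries held from 4954845 to 16863560 reads on miRNAs, and the lowest member value in any library was 362 reads. MiR-21-5p alone took from 27.9% to 60.5% of a library, and its share was from 27.9% to 40.3% in BF-8d, from 39.4% to 45.0% in IMF-8d, and from 49.0% to 60.5% in the other 18 libraries. Because every TPM value is a share of the same total, a fall of miR-21-5p raises the others, and its part in the results was addressed by rescaling, given beside them. MiRNAs of skeletal muscle, 5 of the 6 listed being in the table, summed to between 475 and 2361 TPM in BF and between 696 and 1738 in IMF. Those of blood cells summed to at most 8.08 TPM, those of endothelium to at most 90.9, and those of epithelium, with 4 of 6 in the table, to at most 1.90. In such bulk cultures fewer cells of a type and less RNA per cell cannot be told apart.

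MiR-199b-5p was the most abundant member in the mean, 9322 TPM over the 24 libraries, and it ranked between 7th and 11th among all entries of a library. MiR-199a-5p followed with a mean of 5543 TPM, miR-199-3p with 3019, miR-214-3p with 707 and miR-214-5p with 117. Together the members made up between 1.15% and 3.01% of all reads on miRNAs, with ssc-miR-199a-3p and ssc-miR-199b-3p both counted. These levels compare miRNAs of nearly equal length, from 21 to 23 bases, but ligation and amplification also depend on sequence, which was not measured here.

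**Figure D1:**
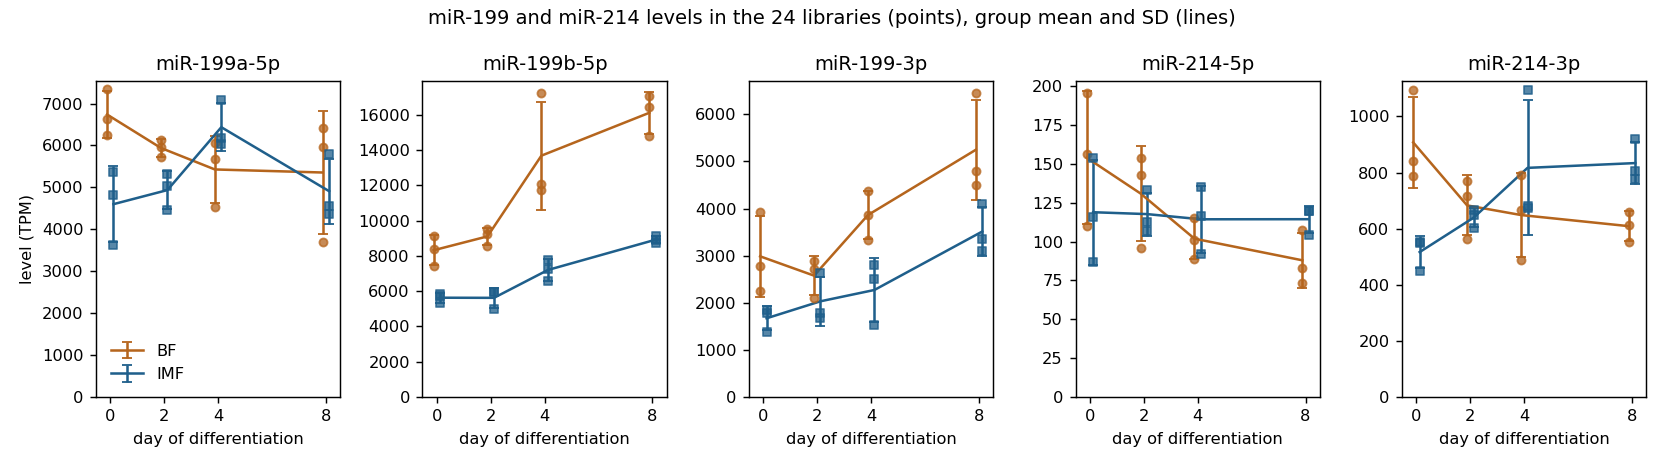
Levels of the 5 distinct members in TPM (y axis, from 0) against day (x axis), with a point for each library and lines for the group mean ± SD (n = 3) in BF (circles) and IMF (squares). MiR-199b-5p is below BF in every IMF library of the same day, and the mean of miR-214-3p falls from 908 to 609 TPM in BF and goes from 516 to 834 TPM in IMF.

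All IMF libraries of miR-199b-5p were below the BF libraries of the same day, and in both sources all libraries of day 8 were above those of day 0. On day 0 its BF libraries held 7409, 9124 and 8414 TPM and its IMF libraries 5702, 5861 and 5305. On day 2 the BF libraries held 8547, 9261 and 9502 TPM and the IMF libraries 4960, 5940 and 5947. All IMF libraries of these days were below all BF libraries. By day 4 the values were 12091, 17213 and 11751 TPM in BF and 7252, 6566 and 7771 in IMF. By day 8 they were 14793, 16470 and 17086 TPM in BF and 9134, 8718 and 8901 in IMF, so again the sources did not overlap. The order of the group means ran from BF-8d (16116 ± 1187 TPM, SD, n = 3), BF-4d (13685 ± 3060), BF-2d (9103 ± 496), IMF-8d (8917 ± 208.2), BF-0d (8316 ± 862), IMF-4d (7196 ± 605) and IMF-0d (5623 ± 286) to IMF-2d (5616 ± 568). Neighbours in this order overlapped in their libraries, other than BF-4d with BF-2d and IMF-4d with IMF-0d.

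MiR-199-3p, the arm that all 3 miR-199 hairpins share, had the same direction between sources in its means but overlapped more. Its libraries held 3934, 2249 and 2771 TPM in BF-0d and 1855, 1377 and 1773 in IMF-0d. In BF-2d they held 2723, 2895 and 2106 TPM and in IMF-2d 1789, 1668 and 2630. The sources did not overlap on day 0, but on day 2 the highest IMF library lay above the lowest BF library. On day 4 BF held 4379, 3340 and 3867 TPM and IMF 2493, 1515 and 2801. On day 8 BF held 4495, 6456 and 4794 TPM and IMF 4098, 3344 and 3093. The IMF libraries of days 4 and 8 were all below the BF libraries of the same day. The group means ran from 5248 ± 1056 TPM in BF-8d down to 1668 ± 256 in IMF-0d, and of the neighbours in this order only BF-8d and BF-4d did not overlap.

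MiR-199a-5p, which has the seed of miR-199b-5p, moved within a narrower range, with its highest library 2.04 times its lowest. Its libraries held 6630, 6239 and 7352 TPM in BF-0d, 5959, 6136 and 5728 in BF-2d, 6064, 5684 and 4536 in BF-4d, and 3688, 6410 and 5968 in BF-8d. In IMF they held 4812, 3612 and 5374 TPM on day 0, 5029, 5330 and 4448 on day 2, 7089, 6174 and 6047 on day 4, and 5794, 4560 and 4372 on day 8. All IMF libraries were below the BF libraries on days 0 and 2, and the sources overlapped on days 4 and 8. In the order of group means, from BF-0d (6740 ± 565 TPM, SD, n = 3) to IMF-0d (4599 ± 900), every group overlapped with the next.

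MiR-214-3p, whose hairpin shares its chromosomal site with MIR199A-1, was higher in BF on day 0 and had the higher mean in IMF on day 8. On day 0 BF held 841, 1094 and 788 TPM and IMF 548, 550 and 450. On day 2 BF held 563, 770 and 715 TPM and IMF 601, 648 and 668. The sources were apart on day 0 and overlapped on day 2. On day 4 BF held 665, 790 and 490 TPM and IMF 674, 682 and 1094. On day 8 BF held 660, 614 and 552 TPM and IMF 918, 806 and 777, so that all IMF libraries were above all BF libraries, the opposite of day 0. MiR-214-5p was the least abundant member, from 73.1 to 196 TPM. Its group mean was 154 ± 43.0 TPM before induction and 87.9 ± 17.7 on day 8 in BF, and stayed between 114 and 119 TPM in the 4 IMF groups.

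The first comparison asked whether the source of the cells sets the level of the members on the same day. Each pair of groups was compared by limma on the log2(TPM + 1) scale, and a call needs a Benjamini-Hochberg FDR under 0.05 over the 430 tested entries and a fold change above 1.5. The log2 fold change is IMF minus BF. MiR-199b-5p was called on days 2, 4 and 8, miR-199-3p on days 0 and 4 and miR-214-3p on day 0, and these 6 calls were all lower in IMF. The direction of the calls depended on the scaling: with median-of-ratios scaling 1 call was lower and 4 were higher in IMF, and with edgeR all 4 were higher. On day 0, 2 of the 5 members were called, against 29.3% of all tested entries (15.8% called lower in IMF). On day 2 it was 1 of 5 against 12.3% (6.51% lower), on day 4 it was 2 of 5 against 36.3% (28.8% lower), and on day 8 it was 1 of 5 against 37.2% (25.1% lower). The libraries of the sources did not overlap for 4, 2, 2 and 3 of the 5 members on days 0, 2, 4 and 8, against 47.7%, 33.3%, 50.2% and 51.2% of all tested entries. With 5 members these counts were near the shares of all entries, so the number of calls is no result about the family.

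Markers of other cell types also differed between sources. MiR-126-3p and miR-126-5p, the 2 endothelium markers, summed to lower medians in IMF on every day, 31.6 against 69.7 TPM on day 0, 27.1 against 42.8 on day 2, 28.5 against 66.1 on day 4 and 25.9 against 79.3 on day 8. Their libraries were apart on days 4 and 8 and overlapped on days 0 and 2. The muscle markers were higher in IMF on day 2, at 814 to 1065 TPM against 475 to 544, and lower on day 4, at 696 to 985 against 1042 to 1526, while on days 0 and 8 they overlapped. The blood markers were lower in IMF on days 2 and 4, with medians of 1.59 against 2.04 and 1.29 against 3.70 TPM, and higher on day 8, with 7.38 against 3.97, with no overlap on these 3 days. Epithelium markers were lower in IMF on day 8, at 0.152 to 0.401 TPM against 0.404 to 0.545, and overlapped on the other days. No marker of the table was at 0 in all libraries, and the part of these cell types in the differences between sources was not tested.

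MiR-199b-5p differed by -0.70 (SE 0.11, limma adjusted p = 0.0132) on day 2, by -0.91 (SE 0.20, limma adjusted p = 0.00307) on day 4 and by -0.85 (SE 0.18, limma adjusted p = 0.00147) on day 8. These are 1.62, 1.90 and 1.81 times higher means in BF. On day 0 its difference was -0.56 (SE 0.10, limma adjusted p = 0.0121), which passed the FDR and missed the fold change. MiR-199-3p differed by -0.81 (SE 0.24, limma adjusted p = 0.0479) on day 0 and by -0.81 (SE 0.25, limma adjusted p = 0.0202) on day 4. On day 8 its value was -0.57 (limma adjusted p = 0.0298), below the fold change needed, and on day 2 it was -0.36 (limma adjusted p = 0.312). For miR-214-3p the difference on day 0 was -0.80 (SE 0.16, limma adjusted p = 0.0144), and on day 8 it was 0.45 (SE 0.16, limma adjusted p = 0.0321), which passed the FDR and missed the fold change. MiR-199a-5p and miR-214-5p were not called on any day, and the value of miR-199a-5p nearest a call was -0.57 on day 0 (limma adjusted p = 0.04998).

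The values between sources depended on how libraries were scaled. The median log2 fold change of all 430 tested entries was -0.13, -0.14, -0.34 and -0.28 on days 0, 2, 4 and 8, and median-of-ratios scaling, which sets this median near 0, moved it by 0.12, 0.13, 0.34 and 0.25. Relative to the median of all entries, miR-199b-5p was still lower in IMF, by -0.43, -0.57, -0.57 and -0.57 on the 4 days. After median-of-ratios scaling its differences on days 2, 4 and 8 were -0.56 (limma adjusted p = 0.0755), -0.48 (limma adjusted p = 0.0667) and -0.53 (limma adjusted p = 0.0183), none of them a call. Of the 6 calls between sources, 1 was kept under that scaling, that of miR-214-3p on day 0, with -0.64 (limma adjusted p = 0.0482). New calls there were all higher in IMF: miR-199a-5p on day 4 with 0.68 (limma adjusted p = 0.0165), miR-214-3p on days 4 and 8 with 0.75 (limma adjusted p = 0.0314) and 0.78 (limma adjusted p = 0.00118), and miR-214-5p on day 8 with 0.71 (limma adjusted p = 0.00574). The difference of miR-199a-5p on day 8 even turned, from -0.10 to 0.23, and on day 2 the values of miR-214-3p and miR-214-5p turned from -0.08 and -0.13 to 0.06 and 0.01. With edgeR on whole reads none of the 6 calls was kept and 4 others were made, and with DESeq2 2 were kept and 5 others were made. These new calls were all higher in IMF. Both tools called miR-199a-5p on day 4 (0.72 with edgeR and 0.68 with DESeq2), miR-214-3p on day 4 (0.79 and 0.76) and on day 8 (0.79 and 0.73) and miR-214-5p on day 8 (0.73 and 0.67), and DESeq2 also called miR-214-5p on day 4 (0.59). Without miR-21-5p in the total 5 of the 6 were kept and 1 other was made, that of miR-214-3p on day 8, higher in IMF with 0.62.

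Some of these calls were also lost with fewer libraries, in part with a difference as large as with all of them. The call of miR-199-3p on day 0 was lost without any of 5 of its 6 libraries, with differences of -0.59 without BF-0d replicate 1, -0.85 without BF-0d replicate 3, and -0.89, -0.68 and -0.86 without IMF-0d replicates 1, 2 and 3. On day 4 it was lost without BF-4d replicate 1 (-0.71) or IMF-4d replicate 2 (-0.54). The day 2 call of miR-199b-5p was lost without BF-2d replicate 1 (-0.75), or without IMF-2d replicate 1 (-0.61), 2 (-0.74) or 3 (-0.74), with limma adjusted p from 0.0546 to 0.0645. Its calls on days 4 and 8 and that of miR-214-3p on day 0 were kept without any single library. New calls came without IMF-0d replicate 3 for miR-199a-5p (-0.69), without BF-0d replicate 1 (-0.64) or IMF-0d replicate 2 (-0.59) for miR-199b-5p on day 0, and without BF-8d replicate 1 (-0.67) or IMF-8d replicate 1 (-0.69) for miR-199-3p on day 8.

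**Figure D2:**
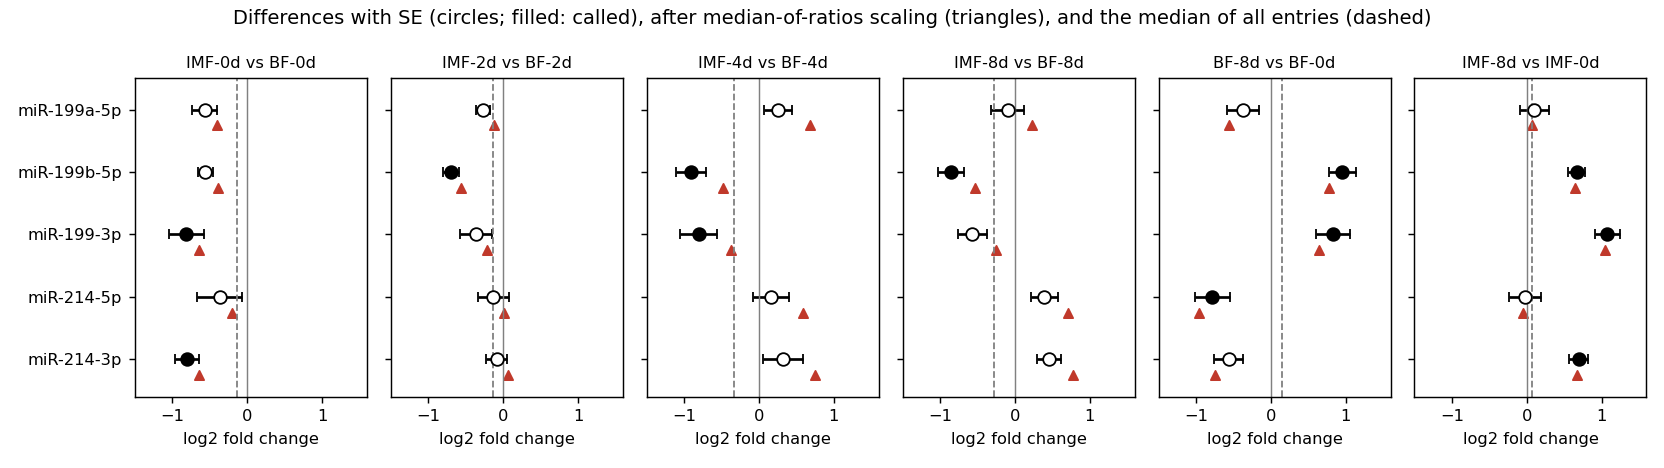
Log2 fold change on the log2(TPM + 1) scale (x axis) of each member (y axis) in the 4 comparisons of IMF with BF and the 2 of day 8 with day 0. Circles with bars are the limma value ± SE and are filled where called, triangles are values after median-of-ratios scaling, and the dashed line is the median of all 430 tested entries. MiR-199b-5p is left of 0 in all 4 comparisons of sources, while the triangles of the miR-214 arms and miR-199a-5p are right of 0 on days 4 and 8.

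The second comparison asked how the members changed over the course of differentiation. Between day 0 and day 8, miR-199b-5p and miR-199-3p rose in both sources, miR-214-5p fell in BF and miR-214-3p rose in IMF. In BF 3 of the 5 members were called, against 42.8% of all tested entries (27.9% higher and 14.9% lower on day 8), and in IMF 3 of 5, against 30.5% (19.8% higher and 10.7% lower). MiR-199b-5p rose by 0.96 in BF (SE 0.18, limma adjusted p = 0.000512), which is 1.94 times its day 0 mean, and by 0.67 in IMF (SE 0.11, limma adjusted p = 0.00502), which is 1.59 times. MiR-199-3p rose by 0.83 in BF (SE 0.22, limma adjusted p = 0.00638) and by 1.08 in IMF (SE 0.17, limma adjusted p = 0.00445), so that its IMF mean on day 8 was 2.11 times that on day 0. For all 4 of these the libraries of day 8 were above those of day 0, and no overlap in either direction was seen for 4 of the 5 members in BF, against 53.7% of all tested entries, and for 3 of 5 in IMF, against 48.8%.

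MiR-214, known as a regulator of muscle and bone genes, gave 1 call in each source. In BF miR-214-5p changed by -0.78 (SE 0.23, limma adjusted p = 0.0121), and miR-214-3p changed by -0.56 (SE 0.19, limma adjusted p = 0.0249), which passed the FDR and missed the fold change. In IMF miR-214-3p rose by 0.69 (SE 0.13, limma adjusted p = 0.00805), while miR-214-5p had a value of -0.02 (SE 0.21, limma adjusted p = 0.952). MiR-199a-5p was called in neither source, with -0.37 in BF (SE 0.22, limma adjusted p = 0.178) and 0.10 in IMF (SE 0.19, limma adjusted p = 0.710).

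Blood markers were higher on day 8 than on day 0 in both sources, at 3.71 to 4.44 TPM against 1.19 to 1.99 in BF and at 6.68 to 8.08 against 1.31 to 1.87 in IMF. Muscle markers went from between 818 and 1012 TPM to between 1324 and 2361 in BF, and their libraries overlapped in IMF, as did those of the endothelium markers in both sources. The part of these cell types in the changes to day 8 was not tested.

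The share of miR-21-5p was lowest on day 8 and moved with these values. MiR-21-5p itself fell by 0.71 between BF-0d and BF-8d (limma adjusted p = 0.0143). With miR-21-5p left out of the total, the median of all entries moved by -0.51 in BF and by -0.33 in IMF, and the rises of miR-199b-5p came to 0.37 for BF (adjusted p of limma = 0.146) and to 0.23 for IMF (adjusted p of limma = 0.220). Those of miR-199-3p became 0.24 (limma adjusted p = 0.453) and 0.64 (limma adjusted p = 0.0727), and that of miR-214-3p in IMF became 0.26 (limma adjusted p = 0.232). In BF the differences of the other members grew to -0.96 for miR-199a-5p (limma adjusted p = 0.00728), -1.37 for miR-214-5p (limma adjusted p = 0.000936) and -1.15 for miR-214-3p (limma adjusted p = 0.000302), all 3 called, and of the 6 calls only that of miR-214-5p was kept. The value of miR-199a-5p in IMF turned to -0.33. Relative to the median of all entries under the usual TPM, which was 0.15 in BF and 0.07 in IMF, the rises of miR-199b-5p were 0.81 and 0.60. Under median-of-ratios scaling all 6 calls were kept, and miR-214-3p in BF was called as well, with -0.75 (limma adjusted p = 0.00504).

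Without BF-8d replicate 2 the rise of miR-199-3p in BF was 0.68 and no longer called (limma adjusted p = 0.0728). The call of miR-214-5p in BF was lost without BF-0d replicate 1 (-0.59) or BF-8d replicate 3 (-0.66). MiR-214-3p in BF was called without BF-0d replicate 1 (-0.61), BF-0d replicate 3 (-0.66) or BF-8d replicate 1 (-0.63).

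Between adjacent days limma called no member in either source, while edgeR and DESeq2 on whole reads each made 1 call. The background was 4.19%, 6.05% and 3.02% of entries over the 3 steps in BF and 0%, 0% and 13.0% in IMF. The values nearest a call were those of BF-4d against BF-2d, with 0.57 for miR-199b-5p (SE 0.17, limma adjusted p = 0.0735) and 0.59 for miR-199-3p (SE 0.19, limma adjusted p = 0.0820). Without BF-4d replicate 1 the first of these was 0.65 and called (limma adjusted p = 0.0345). In the step from IMF-4d to IMF-8d, miR-199a-5p had a value of -0.40 (SE 0.16, limma adjusted p = 0.129) and miR-199-3p of 0.67 (SE 0.25, limma adjusted p = 0.123). The first was called with median-of-ratios scaling, with edgeR and with DESeq2, at -0.59, -0.63 and -0.64. The second was called with a filter of 10 TPM and in the fit of all 24 libraries.

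Whether a time course differed between BF and IMF was tested in limma by an F test on the interaction of source and day, with all 24 libraries in the fit. MiR-214-3p was the only member to pass (F = 8.04, limma adjusted p = 0.00443), against 31.6% of all tested entries. The values of the other members were F = 3.31 for miR-199a-5p (limma adjusted p = 0.0970), 2.06 for miR-214-5p (limma adjusted p = 0.235), 1.10 for miR-199b-5p (limma adjusted p = 0.511) and 0.85 for miR-199-3p (limma adjusted p = 0.606). For miR-199a-5p the test passed without BF-8d replicate 1 (F = 4.79, limma adjusted p = 0.0350). With median-of-ratios scaling miR-199a-5p and miR-214-5p passed as well.

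The ratio of members within a library does not depend on its total, so it is free of the scaling that moved the values above. MiR-199b-5p over miR-199a-5p had group means of 1.24 ± 0.19 in BF-0d, 1.53 ± 0.11 in BF-2d, 2.54 ± 0.52 in BF-4d and 3.15 ± 0.76 in BF-8d (SD, n = 3). In IMF they were 1.26 ± 0.33, 1.15 ± 0.18, 1.12 ± 0.14 and 1.84 ± 0.24. The sources overlapped on day 0 and were apart on days 2, 4 and 8, when every IMF library was below every BF library. The mean log2 difference, IMF minus BF, was -0.58 (exact permutation test within days, two-sided, p = 0.000675, adjusted p = 0.00203 over the 3 ratios). By day it was 0.01, -0.43, -1.16 and -0.76, with exact p of 1, 0.1, 0.1 and 0.1, where 0.1 is the smallest that 3 against 3 libraries can give. Libraries of different days may share a piglet, and the p over all days would then be too small.

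From day 0 to day 8 the same ratio rose by 0.95 on the log2 scale over both sources (exact permutation test within sources, p = 0.01, adjusted p = 0.03). The change was 1.33 in BF, where the libraries of the 2 days were apart (exact p = 0.1), and 0.56 in IMF, where they overlapped (exact p = 0.2), and the test of the difference between them did not pass (0.76, exact permutation p = 0.09, adjusted p = 0.27), which was chosen after seeing the data. With the replicate number as a block the rise was the same and its exact p was 0.03125 (adjusted p = 0.0938), the smallest raw value that the 6 pairs allow. With a replicate number left out the rise was from 0.83 to 1.16, and the smallest raw p that 2 libraries a group allow is 0.0556, so that no such setting could pass.

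**Figure D3:**
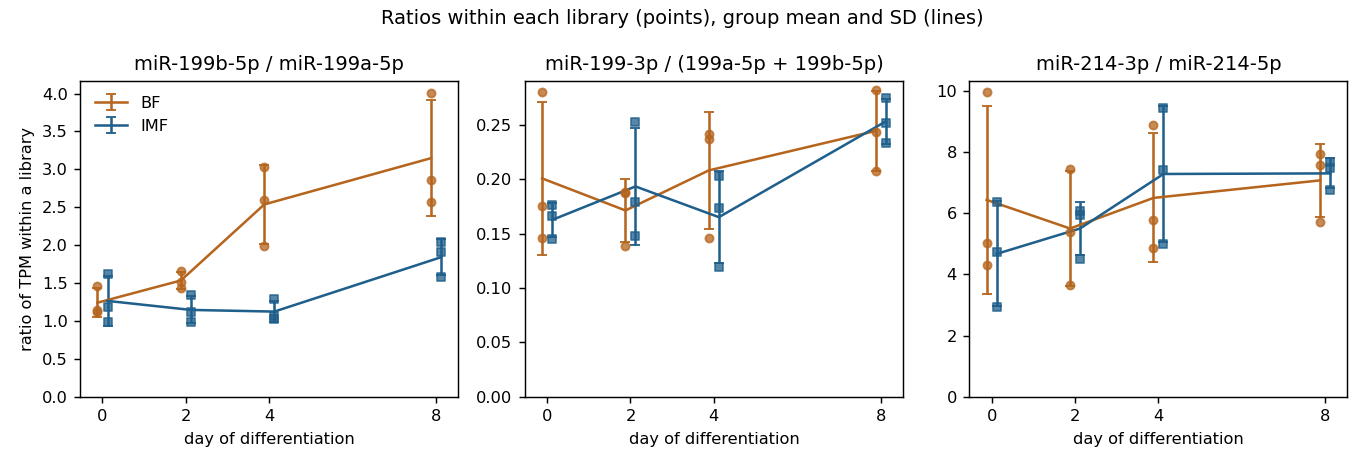
Ratios of TPM within a library (y axis, from 0) against day (x axis) for miR-199b-5p over miR-199a-5p, miR-199-3p over the sum of the 5p arms of miR-199, and miR-214-3p over miR-214-5p, with a point for each library and lines for mean ± SD (n = 3). The first ratio reaches 4.01 in a BF library of day 8 and is at most 2.04 in IMF, and the other ratios overlap between BF and IMF.

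Because miR-199a-5p and miR-199b-5p share a seed, their sum describes the seed as a whole. The sum was 15056 ± 904 TPM in BF-0d, 15044 ± 473 in BF-2d, 19113 ± 3408 in BF-4d and 21471 ± 2591 in BF-8d (SD, n = 3). In IMF it was 10222 ± 654, 10551 ± 655, 13633 ± 817 and 13826 ± 954 TPM. MiR-199b-5p made up 55.2% of the sum in BF-0d and 55.3% in IMF-0d, but 75.4% in BF-8d and 64.6% in IMF-8d. So the mean share of miR-199b-5p in the sum was nearly equal in both sources before induction and apart on day 8. In TPM the sum was lower in every IMF library than in every BF library of the same day, with mean log2 differences of -0.56, -0.51, -0.47 and -0.63 on days 0, 2, 4 and 8. With median-of-ratios scaling, an alternative chosen after seeing the data, these were -0.39, -0.37, -0.05 and -0.31, and the sources overlapped on day 4. From day 0 to day 8 the mean log2 difference of the sum in TPM was 0.51 in BF and 0.44 in IMF. With median-of-ratios scaling it was 0.32 and 0.41. Without miR-21-5p in the total the sum was not computed. Its parts miR-199a-5p and miR-199b-5p then changed by -0.96 and 0.37 in BF and by -0.33 and 0.23 in IMF. No test was run on the sum, which is given as a description.

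**Figure D4:**
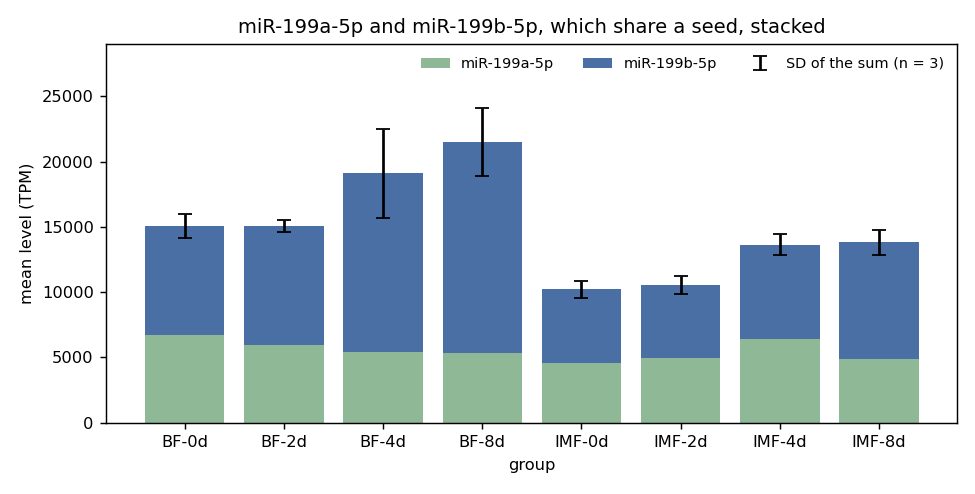
Mean levels of miR-199a-5p and miR-199b-5p in TPM (y axis, from 0), stacked for the 8 groups (x axis), with bars for the SD of the sum over 3 libraries. The sum goes from 15056 to 21471 TPM in BF and from 10222 to 13826 TPM in IMF, with miR-199b-5p as the larger part of each bar. The size of these rises depends on the scaling.

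Set against the sum of both 5p arms, miR-199-3p was lower in every library. MiR-199-3p over the sum of both 5p arms was between 0.119 and 0.282. Its means were 0.201 ± 0.070 in BF-0d, 0.244 ± 0.037 in BF-8d, 0.163 ± 0.016 in IMF-0d and 0.253 ± 0.021 in IMF-8d, and this was a rise of 0.48 on the log2 scale over both sources (exact permutation test, p = 0.02, adjusted p = 0.03). The libraries of day 8 and day 0 overlapped in BF (0.33, exact p = 0.3) and were apart in IMF (0.64, exact p = 0.1). The rise over both sources did not pass with the replicate number as a block (exact permutation, adjusted p = 0.0938), and it was 0.29 without the libraries numbered 2, and 0.62 and 0.54 without those numbered 1 and 3, where again no p under 0.0556 was possible. Between sources it differed by -0.09 (exact permutation test, p = 0.488, adjusted p = 0.732). The result differed with the 5p arm it was set against. Over miR-199a-5p alone the ratio was lower in IMF by -0.47 (exact permutation, adjusted p = 0.00666) and rose by 1.09 to day 8 (exact permutation, adjusted p = 0.015). Over miR-199b-5p alone these values were 0.12 (exact permutation, adjusted p = 0.641) and 0.14 (exact permutation, adjusted p = 0.52).

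For miR-214 the 3p arm was the larger in every library, with 3p over 5p between 2.93 and 9.96. The group means ran from 4.67 ± 1.72 in IMF-0d to 7.30 ± 0.49 in IMF-8d, and from 5.50 ± 1.89 in BF-2d to 7.07 ± 1.20 in BF-8d. The difference between sources was -0.04 (exact permutation test, p = 0.820, adjusted p = 0.820) and that from day 0 to day 8 was 0.47 (exact permutation test, p = 0.11, adjusted p = 0.11), neither of which passed. In these read counts the larger arm was thus 3p in miR-214 and, against the sum of both 5p arms, 5p in miR-199. Against miR-199a-5p alone, miR-199-3p ranged from 0.245 to 1.22 and was the higher in BF-8d replicates 1 and 2 (1.22 and 1.01). Arms differ in sequence, and their ligation was not measured.

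Across the 24 libraries the members did not move as a unit. The Pearson correlation of log2(TPM + 1), which is given as a description over libraries that share groups and depth, was 0.81 between miR-199b-5p and miR-199-3p. Between miR-199a-5p and miR-214-3p, whose hairpins on chromosome 9 are neighbours, it was 0.34, and between miR-199a-5p and miR-214-5p it was 0.46. The arms of miR-214 had 0.12 and the 5p arms of miR-199 had 0.12. The known miRNAs most like miR-199b-5p were miR-30d (r = 0.95), miR-34a (0.94) and miR-424-5p (0.93), and those most like miR-199-3p were miR-6516 (0.91), miR-181a (0.91) and miR-16 (0.89). For miR-199a-5p the highest were let-7g (0.71), miR-499-5p (0.64) and miR-95 (0.63). Those of miR-214-3p were miR-26a (0.74), miR-151-5p (0.71) and miR-374b-5p (0.69), and those of miR-214-5p were miR-99a-5p (0.84), miR-143-5p (0.80) and miR-676-3p (0.79).

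The other miRNAs of a list known for fibroblasts, stromal cells or collagen control gave the members a frame. All 11 were tested. Between BF-0d and BF-8d, 4 of them rose and 4 fell, against 27.9% and 14.9% of all tested entries (median log2 fold change -0.19, against 0.15 over all entries). The risers included miR-29b, which targets collagen mRNAs, with 3.37 (limma adjusted p = 4.27e-09), and miR-10b, with 0.87 (limma adjusted p = 0.00629), and among those that fell were miR-145-5p, a miRNA of smooth muscle and other contractile cells, with -1.34 (limma adjusted p = 8.32e-05), and miR-125b, with -0.95 (limma adjusted p = 0.00087). In IMF 3 rose and 0 fell over the same days, against 19.8% and 10.7% of all tested entries, with a median of 0.25 against 0.07. Between sources 0, 0, 0 and 2 of the 11 were higher in IMF and 2, 0, 3 and 1 were lower on days 0, 2, 4 and 8, where 29.3%, 12.3%, 36.3% and 37.2% of all tested entries were called and 15.8%, 6.51%, 28.8% and 25.1% were called lower. The list thus held members that went each way, as the 5 distinct members did in BF.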

How the data were processed

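The authors aligned clean small RNA reads of 24 libraries without mismatch to Sscrofa11.1 (Bowtie), discarded other classes of small RNA, annotated miRNAs from miRBase, called new ones by miRDeep2 and compared groups with DESeq2. For these miRNA steps no version is given in the sources used here. The deposited unit is RPM, which the authors call TPM, scaled so that the entries of a library sum to 1000000. All 38088 values were within 0.001 of a whole read, so whole reads were recovered. No read number was corrected for molecules, and errors are the SD over 3 libraries for levels and ratios and the SE from limma for fold changes.

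Entries that averaged 1 TPM or more over the 24 libraries (430) were tested with limma 3.58.1 in R 4.3.3, by eBayes with a trend, on log2(TPM + 1), pair of groups by pair of groups. Called entries had an FDR (Benjamini-Hochberg) below 0.05 together with a change of more than 1.5-fold. Ratios were tested by exact two-sided permutation. The fold change understates the change of low entries. Named are the members, the 3 known miRNAs most correlated with each, the listed fibroblast and cell type miRNAs, and miR-21-5p. The members, lists and tests were chosen with earlier results of these data known. Mature sequences were read from the study's supplementary list and matched to Sscrofa11.1 on both strands. Fits were tested on simulated data. Alternatives were another pseudocount, filter, scaling or total, a replicate block, a fit of all libraries, FDR alone, edgeR 4.0.16 and DESeq2 1.42.0 on whole reads, and libraries left out. Other tools were SciPy 1.17.1, NumPy 2.4.6, Matplotlib 3.10.9 and pandas 2.3.3 under Python 3.11.15. The mRNA data were not analysed here.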

Additional observations from a re-analysis of the deposited data

Results flagged for a closer look

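The time course of miR-214-3p differed between BF and IMF in limma's interaction test over all libraries (adjusted p = 0.00443). The same test passed for 31.6% of all tested entries. Of the 3 known miRNAs most like it, miR-26a passed as well (limma adjusted p = 0.0251). MiR-151-5p (limma adjusted p = 0.0742) and miR-374b-5p (limma adjusted p = 0.275) did not. The mean of miR-214-3p went from 908 to 609 TPM between day 0 and day 8 in BF and from 516 to 834 TPM in IMF, and the order of the sources was opposite on the 2 days with no overlap of libraries on either. The sources did not overlap for 47.7% of all tested entries on day 0 and for 51.2% on day 8. The difference of miR-214-3p on day 8 (0.45) passed the FDR and missed the fold change. The limma adjusted p of the interaction was 0.0007 with median-of-ratios scaling and 0.0009 without miR-21-5p in the total, and 0.0603 without the libraries numbered 2, when the test no longer passed. It passed without any single library.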

How the results depend on the processing

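Of 811 values recomputed for single members under the alternatives, 678 kept their direction and their side of the threshold, 63 lost a call, 44 gained one and 26 turned in sign. None of the 26 belonged to a comparison in which that member was called. Of the steps between adjacent days, only those given with values above are among the 811. Calls between IMF and BF numbered 6, against 1 without a filter and 10 by FDR alone, and from 2 to 7 with libraries left out. Calls between adjacent days numbered 0, against 1 each with a mean of at least 10 TPM, median-of-ratios scaling, the fit of all 24 libraries, edgeR and DESeq2, and from 0 to 1 with libraries left out. Calls between day 0 and day 8 numbered 6, against 3 without miR-21-5p in the total, and from 3 to 7 with libraries left out. Source-by-day interactions numbered 1, against 3 with median-of-ratios scaling, and from 0 to 2 with libraries left out. Of the 6 calls between sources, 1 was kept with median-of-ratios scaling, 0 with edgeR and 2 with DESeq2, and of the 6 between day 0 and day 8, 6, 5 and 4 were. The cause was not tested, other than that no filter tests more entries.

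Same-numbered libraries of 2 groups correlated above 0.1 in 11 of 36 cases (from -0.33 to 0.51). All 3 did so in 1 of 12 comparisons, IMF-0d against BF-0d (0.19, 0.51 and 0.21), where the block kept the calls of miR-199-3p (limma adjusted p = 0.0152) and miR-214-3p (limma adjusted p = 0.0110). In the other comparisons at least 1 of the 3 did not, and such correlations cannot show whether same-numbered libraries share a piglet. With the replicate block, 5, 0 and 6 members were called in the 3 sets of comparisons and 1 interaction passed, and the call of miR-199b-5p on day 2 was lost (limma adjusted p = 0.0530). The rise of miR-199b-5p over miR-199a-5p to day 8 (0.95) and that of miR-199-3p over both 5p arms (0.48) each had an adjusted exact permutation p of 0.0938 under the block, where the first was at the smallest raw p of 6 pairs. With a replicate number left out these rises were 0.83 to 1.16 and 0.29 to 0.62, with adjusted exact p from 0.0833 to 0.222, where fewer libraries allow no smaller raw p than 0.0556. Set against miR-199a-5p alone, miR-199-3p differed between sources by -0.47, and against miR-199b-5p alone by 0.12, with 0.14 to day 8. The ratio of the miR-214 arms between sources was from -0.083 to 0.00082 with a number left out.

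None of the values that turned was a call, and they lay between -0.13 and 0.32 as reported. Between sources on day 2, miR-214-3p was 0.058 with median-of-ratios scaling, 0.074 with edgeR, 0.039 with DESeq2 and -0.22 to 0.0085 with libraries left out. MiR-214-5p was 0.011, 0.048, 0.0091 and -0.34 to 0.012. On day 8, miR-199a-5p was 0.23, 0.22, 0.17 and -0.47 to 0.10, and 0.067 without miR-21-5p. On day 4, miR-214-3p was -0.10 to 0.59 with libraries left out. From day 0 to day 8 in IMF, miR-199a-5p was -0.33 without miR-21-5p, -0.014 with edgeR, -0.020 with DESeq2 and -0.062 to 0.30 with libraries left out, and miR-214-5p was -0.26 to 0.25. The lowest member value rested on 362 reads, and depth was not tested as a limit.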
